A study of Mus musculus with 8 samples.

Results

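Distal region clusters are places where accessible chromatin regions lie close together away from gene ends. They were taken from an atlas of 76872 accessible regions in mouse induced pluripotent stem cells. A region counted as distal when no base of it lay within 1 kb of an outer limit of a protein-coding gene, on build GRCm38. Distal regions were joined when the gap between them was at most 5 kb, and groups of 5 or more regions were kept. A group was dropped if it touched a fixed 100 kb window holding 20 or more atlas regions, which removed 67 such groups with 732 regions. This left 270 clusters with 1569 regions, which is 2.04% of the atlas and 2.57% of its 61093 distal regions. The positions of the regions chose the clusters, so their number, their gaps and their distance from gene ends are descriptions and not findings.

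The atlas came from ATAC-seq, which uses the Tn5 transposase to cut and tag open DNA, on a clonal line carrying the FUCCI2 cell cycle reporters. The medium of all cells held serum, LIF and a MEK and a GSK3 inhibitor, over a layer of irradiated feeder cells. The 8 libraries were 2 of mitotic cells, shaken off after 6 h in nocodazole at 200 ng/ml, 2 each of cells 1 h and 3 h after release from that block into fresh medium, and 2 of untreated asynchronous cells. The deposited list is 1 atlas for all libraries, so regions could not be traced to a group, no change on leaving mitosis could be measured, and the depth behind a region is unknown.

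Super-enhancers are stretches of neighbouring enhancers that are densely bound by the master transcription factors of a cell type and by the Mediator complex. In pluripotent cells they lie near genes of cell identity, such as those for Oct4, Sox2 and Nanog. They are defined by factor binding or histone acetylation, neither of which an accessibility atlas records. Whether the clusters meet that description could therefore not be told. Some loci known for super-enhancers were among them, while most pluripotency genes had no cluster within 50 kb. The neutral name distal region clusters is used here.

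The microRNAs beside the cluster nearest to Nlrp12 are shown first, because this cluster held 11 regions and ended 4.76 kb before Mir290a. Mir290a is the first gene of the miR-290 family, whose microRNAs are abundant in mouse pluripotent cells and favour passage from G1 into S phase. The mature sequences are from RefSeq, GRCm38.p6, plus strand, and run from chr7:3218674-3218697 for the first to chr7:3220815-3220837 for the last. Capitals mark the seed, bases 2 to 8, which pairs with target messages.
mmu-miR-290a-3p: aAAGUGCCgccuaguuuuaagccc
mmu-miR-291a-3p: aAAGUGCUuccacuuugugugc
mmu-miR-294-3p: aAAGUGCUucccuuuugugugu
mmu-miR-295-3p: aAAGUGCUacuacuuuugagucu
The last 3 share the seed AAGUGCU, and miR-290a-3p has the seed AAGUGCC.

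Some members covered annotated starts of transcription, since only the outermost limits of protein-coding genes defined distal. Inner starts of those genes and starts of long noncoding genes were not excluded. The RefSeq windows from 250 bases before to 50 bases after a start show this. Members touched 43 such windows of 37 genes, 14 protein-coding and 23 long noncoding, through 36 regions in 34 clusters. In 29 of these regions the start itself was covered. Lying near a start was not particular to members. Within 1 kb of an annotated start lay 87 members (5.54%), against 5.90% of other distal regions, with 7.49% in groups of 2 to 4 and 4.93% of single regions. The 4 windows below were chosen after their values were seen, as examples from clusters described later. Nr5a2 encodes a nuclear receptor that acts with the pluripotency network, Mcl1 an inhibitor of apoptosis and Cbx7 a Polycomb subunit, while Gm13025 is a long noncoding RNA in the cluster nearest to Rcc2. Capitals mark matches to the motifs described after them.
Nr5a2, chr1:136953581-136953880, minus strand: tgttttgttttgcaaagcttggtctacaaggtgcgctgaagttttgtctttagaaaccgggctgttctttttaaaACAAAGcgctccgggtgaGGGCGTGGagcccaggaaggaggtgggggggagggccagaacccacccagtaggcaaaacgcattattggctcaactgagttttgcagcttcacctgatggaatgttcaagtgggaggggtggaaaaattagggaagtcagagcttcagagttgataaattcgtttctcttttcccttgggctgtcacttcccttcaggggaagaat
Mcl1, chr3:95658471-95658770, plus strand: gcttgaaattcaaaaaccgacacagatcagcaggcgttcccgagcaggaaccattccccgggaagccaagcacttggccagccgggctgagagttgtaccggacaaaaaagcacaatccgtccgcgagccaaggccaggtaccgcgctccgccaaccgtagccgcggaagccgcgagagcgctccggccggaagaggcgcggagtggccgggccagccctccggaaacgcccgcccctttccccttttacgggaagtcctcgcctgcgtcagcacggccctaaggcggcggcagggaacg
Cbx7, chr15:79932597-79932896, minus strand: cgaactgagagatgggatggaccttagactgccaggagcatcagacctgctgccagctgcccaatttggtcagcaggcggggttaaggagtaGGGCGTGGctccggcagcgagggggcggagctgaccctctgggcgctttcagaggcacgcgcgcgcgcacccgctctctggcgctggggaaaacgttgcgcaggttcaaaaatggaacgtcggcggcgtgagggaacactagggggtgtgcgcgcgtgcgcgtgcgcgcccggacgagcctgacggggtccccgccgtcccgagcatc
Gm13025, chr4:140679495-140679794, plus strand: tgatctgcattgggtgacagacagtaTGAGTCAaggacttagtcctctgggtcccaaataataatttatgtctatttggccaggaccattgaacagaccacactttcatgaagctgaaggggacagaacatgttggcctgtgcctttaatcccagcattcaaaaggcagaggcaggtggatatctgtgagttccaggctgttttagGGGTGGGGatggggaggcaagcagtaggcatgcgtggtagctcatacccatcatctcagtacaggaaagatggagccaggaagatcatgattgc
The windows of Nr5a2, Mcl1 and Gm13025 lay wholly inside member regions of 536, 472 and 1027 bp. A member of 637 bp covered 239 bases of the Cbx7 window. Mcl1 and Cbx7 each had 33 CpG dinucleotides in the window, against 7 for Nr5a2 and 1 for Gm13025.

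Motifs were searched on both strands of the promoter windows. Klf motifs, CCCCACCC or CCACGCCC, occurred in 12 of the 43 touched windows (27.9%), against 14.6% of all 32817 windows in the table. The capitals in the Cbx7 window and the second capitals in the Nr5a2 and Gm13025 windows are such matches. AP-1 motifs, TGACTCA or TGAGTCA, occurred in 6 (13.95%), against 5.20% of all windows, and the first capitals of Gm13025 mark one. Sox motifs, ACAAAG or ACAATG, occurred in 8 touched windows (18.6%), against 28.6% of all, and the first capitals of Nr5a2 mark one. The 6 windows with an AP-1 motif belong to 5 genes, since Gm33663 has a pair of windows 1 base apart. Of these genes, Gm41144 and 4930527F14Rik share 1 region. A CTCF core motif was found in that pair of Gm33663 windows alone, which is 1 place, and in 2.43% of all windows. The octamer motif, ATGCAAAT or ATGCTAAT, and the Esrrb motif TCAAGGTCA were found in 0 touched windows, against 2.62% and 0.424% of all. The median GC share was 55.7% in touched windows and 52.7% in all windows, and the median number of CpG dinucleotides was 11 and 7. All windows include those that no accessible region touches. Windows touched by other atlas regions were not counted beside these, so no motif share can be read as particular to the clusters. Several touched windows overlap one another, a match is a description and not a site of binding, and the sequence of the other members was not used here.

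Member regions had a lower median width than distal regions that stood alone. The median was 223 bp for members, against 259 bp for single distal regions, 232 bp for groups of 2 to 4 and 525 bp at gene ends. Regions of the large groups dropped at crowded windows had a median of 216 bp, so a low width was not particular to the kept clusters. The quartiles were 132 and 380 bp for members, and 146 and 435 bp for single distal regions. Of the members, 233 (14.9%, 95% Wilson interval 13.2 to 16.7%) were at least 500 bp wide, against 17.9% of all other distal regions and 52.3% of regions at gene ends. The widest member measured 1542 bp. The lower limit of the atlas, 73 bp, was met by 71 members (4.53%) and by 4.52% of other distal regions. The rule did not use width itself, but it counted regions. An open stretch called as several narrow regions therefore qualifies more easily than the same stretch called as a single wide one. Gaps inside clusters went down to 163 bp, with a lower quartile of 443 bp, and the bearing of this on width was not tested. Neighbouring regions also share their surroundings and were called together, so no test was made.

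**Figure D1:**
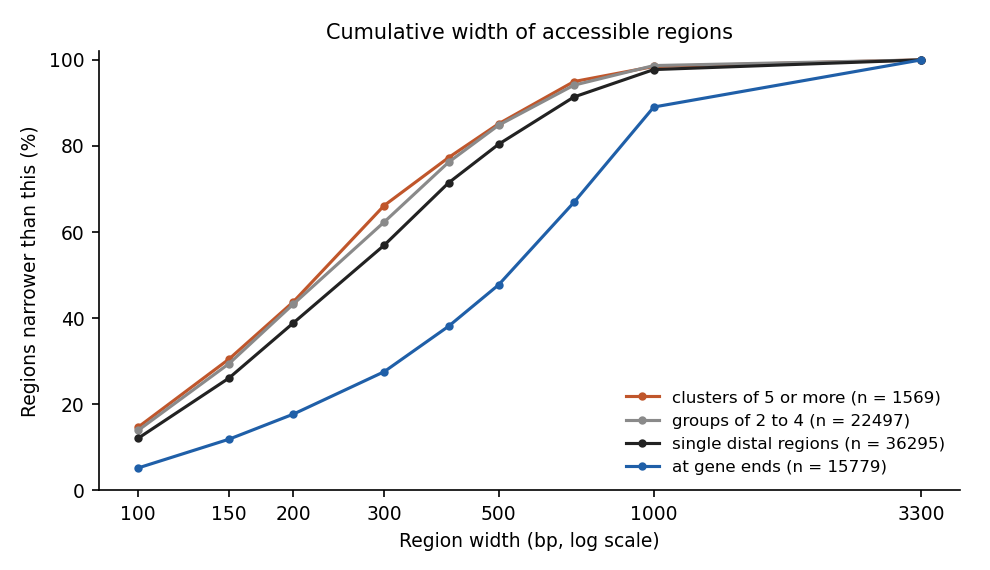
Cumulative share of regions (percent, vertical axis) narrower than each width (bp, log scale) for 1569 members of clusters, 22497 regions in groups of 2 to 4, 36295 single distal regions and 15779 regions at gene ends. The curve of the members lies to the left of that of the single distal regions (median 223 against 259 bp), and that of the gene ends lies far to the right (525 bp).

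A cluster spanned 10.1 kb in the median, with quartiles of 7.02 and 13.3 kb and a range of 1.78 to 41.8 kb. Its regions together covered 1.504 kb in the median, or 14.9% of the span (quartiles 11.5 and 20.8%). The widest region of a cluster had a median width of 531 bp. Most clusters were near the lower limit of the rule: 165 had 5 regions, 96 had 6 to 8 and 9 had 9 or more. Just inside the limit, the 165 clusters of 5 regions had a median span of 8.83 kb and 14.9% of it covered. Just outside, 501 groups of 4 regions had 6.61 kb and 16.7%.

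The 2 clusters with the most regions, 17 each, lay at chromosome X, 169986246 to 170010160, and at chromosome 5, 15461589 to 15491142. The first touched Mid1, which encodes a microtubule-associated ubiquitin ligase, and 3 of its regions lay in that gene. The widest of its regions measured 805 bp. The second touched Gm21149, with 1 region in the gene. The cluster nearest to Gm40363, at chromosome 6, 47739599 to 47781442, had 13 regions, the longest span (41.8 kb) and the most covered bases (7.58 kb). Its widest region measured 1316 bp, and it touched the long noncoding genes Gm52861 and Gm52862. The neighbouring cluster at Gm40365 ended 66.5 kb away, held 8 regions and touched an rRNA gene.

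Pisd, which encodes the mitochondrial phosphatidylserine decarboxylase, was the nearest gene of a cluster of 12 regions at chromosome 5, 32719387 to 32739369. Cbx7 held all 10 regions of the cluster at chromosome 15, 79927553 to 79953703. These measured 501, 637, 144, 246, 164, 183, 215, 168, 714 and 79 bp, so that 3 regions exceeded 500 bp. Clusters of 9 regions had as nearest genes Pls3, for an actin-bundling protein, Defb33, for a beta-defensin, and Wapl, whose product releases cohesin from chromatin. The regions near Pls3 had a median of 447 bp, against 183 bp near Defb33 and 126 bp near Wapl. Next came 20 clusters tied at 8 regions, the first of which in genome order lay near Slc16a14, 1700008P02Rik and Mcl1. The cluster at Mcl1, chromosome 3, 95645391 to 95666382, had regions of 340, 441, 437, 811, 472, 183, 253 and 208 bp. The cluster at Rcc2, for a regulator of chromosome condensation, was the fifth longest with a span of 24.7 kb.

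**Figure D2:**
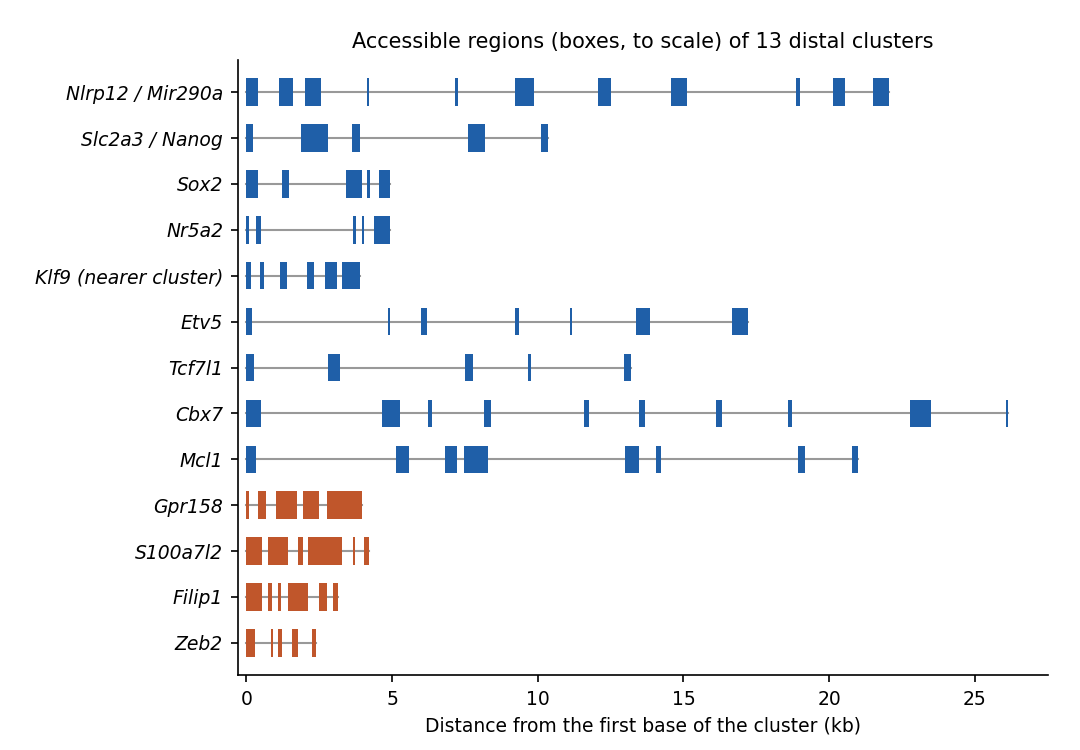
Regions (boxes, drawn to scale) of 13 clusters by distance in kb from the first base of each cluster, with clusters near pluripotency, signalling and other genes in blue and compact or remote clusters in orange. The 11 regions before Mir290a spread over 22.04 kb, while those of the cluster nearest to Gpr158 fill 72.4% of 3.98 kb.

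Of the genes of the core pluripotency network, 3 of 24 (95% interval of the share 4.34 to 31.0%) had a cluster within 50 kb, against 2.48% of all 21774 protein-coding genes. Of 24 genes listed from general knowledge as lying near embryonic stem cell super-enhancers, 5 (20.8%, interval 9.24 to 40.5%) had one. That list includes the microRNA gene Mir290a, while the 2.48% counts protein-coding genes only. The lists share 14 genes and were written with results of these data known, neighbouring genes share clusters, and no test was made. A core member that had a cluster is not described by name here. The others were Nr5a2 and Nanog, and the second list added Klf9 and Mir290a.

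All 5 regions of the cluster at chromosome 1, 136949134 to 136954050, lay inside Nr5a2. They measured 97, 182, 99, 73 and 536 bp, and the widest holds the start printed above. Nanog, for a homeodomain factor that maintains pluripotency, lay 48.0 kb from a cluster at chromosome 6, 122762586 to 122772934. All 5 regions of that cluster were inside Slc2a3, a glucose transporter gene, and measured 222, 899, 264, 564 and 233 bp. The 11 regions before Mir290a, at chromosome 7, 3191829 to 3213868, measured 402, 466, 539, 73, 98, 658, 439, 548, 125, 437 and 545 bp. Their median of 439 bp was above the 223 bp of all members, and 4.33 kb were covered, the fourth highest of all clusters.

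Klf9, a gene of the Krüppel-like factor family, had a pair of clusters 33.9 kb apart. The nearer, at chromosome 19, 23132813 to 23136708, lay 4.52 kb from the gene and touched the long noncoding gene 2410080I02Rik. It was compact, with 6 regions of 163, 132, 257, 221, 424 and 611 bp covering 46.4% of 3.90 kb. The other lay 42.3 kb from Klf9, and its 5 regions covered 13.7% of 11.6 kb. Sox2, for a reprogramming factor, had a cluster 104 kb away, outside the 50 kb limit, which is named after its values were seen. It lay on the downstream side of the gene, where the Sox2 control region, an enhancer used in embryonic stem cells, is known to lie. This cluster, at chromosome 3, 34756619 to 34761540, had regions of 391, 234, 574, 73 and 381 bp that covered 33.6% of its span.

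Most pluripotency genes had smaller groups. Of the 24 core genes, 18 (75%) had a group of 3 or more distal regions within 50 kb, as had 21 of the 24 super-enhancer genes (87.5%), against 19.4% of all protein-coding genes. Mir290a, a microRNA gene of the super-enhancer list, is outside that protein-coding set. Among the 34 genes of either list, the largest such group had 4 regions for 9 genes, 1 below the limit. These 9 were Esrrb, Klf4, Pou5f1, Sall4, Sox2, Tet1 and Zfp42, all of the core list, and the kinase genes Sgk1 and Sik1. The largest group had 3 regions for 12 genes, 2 for 7 genes and 1 for Nr0b1. Pou5f1, which encodes Oct4, lay 425 kb from the nearest cluster, Esrrb 272 kb and Klf4 11367 kb. When longer gaps were joined, up to the stitching distance commonly used for super-enhancers, 14 of 24 core genes (58.3%) and 16 of 24 super-enhancer genes (66.7%) had a cluster. All protein-coding genes were then at 14.5%. Other lists also had more genes with a cluster, with 9 of 16 trophoblast genes, 12 of 28 signalling genes (42.9%), 7 of 20 immediate early genes (35%) and 8 of 24 housekeeping genes (33.3%).

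**Figure D3:**
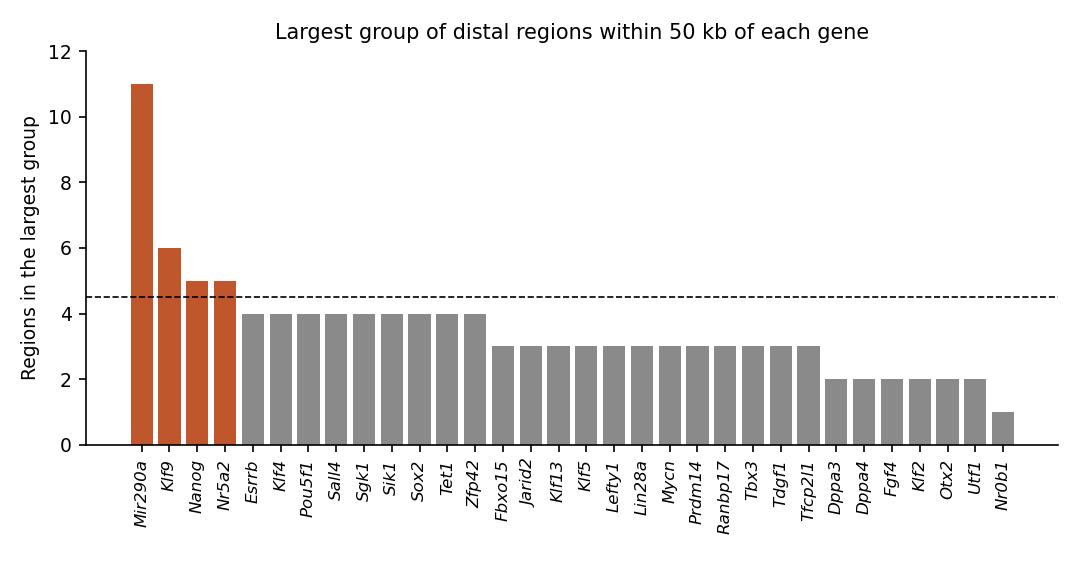
Number of regions in the largest distal group within 50 kb (vertical axis) for 32 of the 34 genes of the core pluripotency and super-enhancer lists, in orange where a cluster of 5 or more lies there. The dashed line marks the limit of the rule, and Mir290a has the largest group with 11 regions, while 9 genes sit at 4.

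Other lists had 0 to 2 genes with a cluster, to be read beside the 2.48% of all protein-coding genes. In LIF, Wnt, FGF and BMP signalling, 2 of 28 genes (7.14%) had one, and 60.7% had a group of 3 or more. Tcf7l1, a repressor of Wnt target genes, held all 5 regions of the cluster at chromosome 6, 72750821 to 72764019, of 258, 404, 278, 128 and 241 bp. Etv5, an ETS factor gene, held all 7 regions of the cluster at chromosome 16, 22389221 to 22406441, of 199, 78, 187, 163, 73, 481 and 543 bp. Among neural genes, 2 of 20 (10%) had a cluster, a share whose interval of 2.79 to 30.1% overlaps that of the core pluripotency list. They were Pax6 with 7 regions and Nkx2-2 with 5, all inside the gene. Both encode homeodomain factors of the developing nervous system.

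The list of 24 adult tissue genes had 1 gene with a cluster (4.17%), which is not described by name here. Besides it, each of 6 further lists had 1 such gene. In these 6 lists the genes were Gsc among 20 mesoderm genes, Loxl1 among 22 genes of feeder fibroblasts and Polr2a among 24 housekeeping genes. The others were Cdkn1c among 24 G1/S genes, Wapl among 24 of chromatin architecture and Ier2 among 20 immediate early genes. For 3 of these 6 another gene was nearer to the cluster: Gsc lay 43.96 kb, Polr2a 15.1 kb and Loxl1 6.94 kb away, with Serpina3n, Tnfsfm13 and Stoml1 closer. Cdkn1c, for an imprinted inhibitor of cyclin-dependent kinases, was touched by its cluster. No cluster lay within 50 kb of the 18 endoderm, 16 trophoblast, 24 G2/M and 39 Hox genes, lists too short for these zeros to be told from 2.48%. With the stitching distance given above, 9 trophoblast, 4 endoderm and 3 G2/M genes had one, and with groups of 4 or more regions 1, 4 and 2 had one. The Hox genes had 0 in both cases. Hox genes also had no group of 3 or more, while 41.7% of housekeeping and 45.8% of G1/S genes had one.

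**Figure D4:**
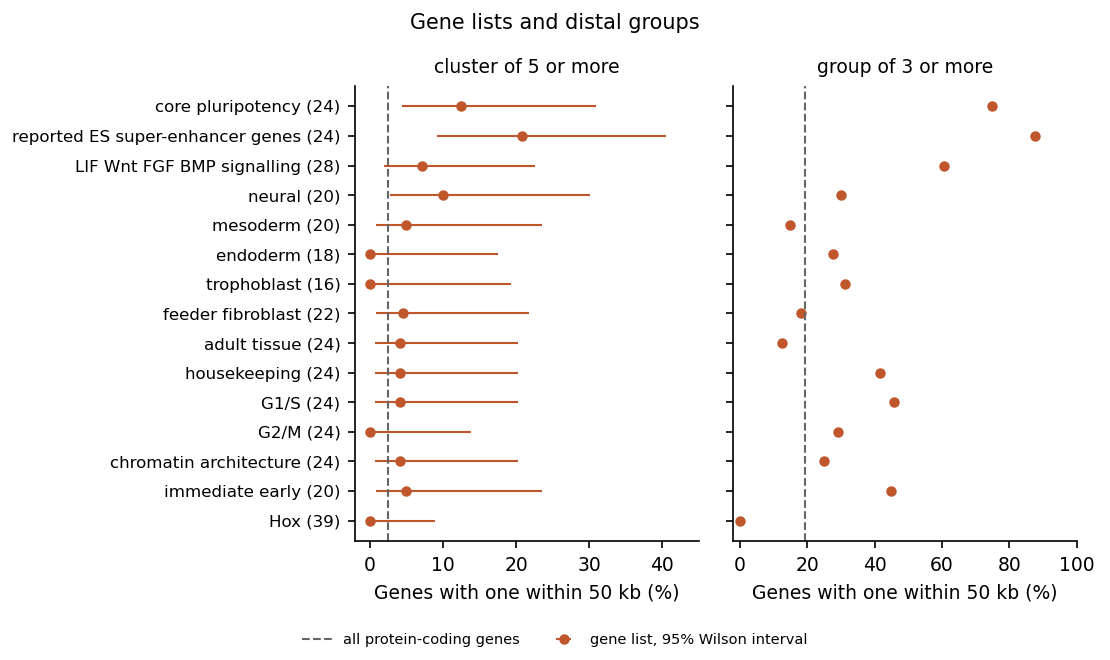
Share of genes in each list (percent, with the number of genes in brackets) that have a cluster of 5 or more regions (left, with 95% Wilson intervals) or a group of 3 or more (right) within 50 kb; dashed lines give all protein-coding genes. The core pluripotency and super-enhancer lists stand at 3 and 5 of 24 genes on the left and at 75% and 87.5% on the right.

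The share of regions inside protein-coding genes was lower among members than among other distal regions, a difference given without a test. Of the members, 509 (32.4%, interval 30.2 to 34.8%) were inside such a gene, against 45.4% of other distal regions, with 46.2% in groups of 2 to 4 and 45.2% of single regions. The interval takes regions as independent, although members of a cluster often share a gene, so it is too narrow. In the large groups dropped at crowded windows the share was lower still, at 24.7% of 732 regions. When gaps of up to 10 kb or up to that stitching distance were joined, the share of members was 44.3% and 46.8%, close to that of the other distal regions. Per cluster, 108 (40%) touched a protein-coding gene and 81 lay wholly in one. Outside genes, 54 lay within 10 kb, 59 at 10 to 50 kb, 20 at 50 to 100 kb and 29 farther. The 162 clusters outside genes had a median distance of 20.9 kb. The nearest genes were 256 different genes, and Gm15319 was nearest to 5 clusters and Olfr161 to 3.

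Noncoding genes were touched by some clusters, and other spans of like length were not counted beside them. A long noncoding gene was touched by 72 clusters (26.7%), 48 of them outside protein-coding genes, and 114 clusters touched neither kind. By region, 224 members (14.3%) lay in a long noncoding gene, against 11.4% of other distal regions. The share was 12.7% in groups of 2 to 4, 10.6% for single regions and 6.97% in the large groups dropped at crowded windows. The genes named next were chosen after their values were seen. Malat1, an abundant nuclear RNA, was touched by a cluster of 6 regions, Firre, an X-linked RNA that organises chromatin, by one of 7, and the imprinted Snhg14 by one of 5. Platr4 and Platr29, transcripts named for their association with pluripotency, were touched by clusters of 6 and 5 regions. MicroRNA genes were touched by 4 clusters, including Mir137 by the cluster nearest to Dpyd and Mir499 by that in Myh7b. Within 10 kb, 26 microRNA genes with 48 mature sequences in RefSeq lay near 12 clusters, and those of the miR-290 family and the Mir23a, Mir27a and Mir24-2 genes lay beside one cluster each. Transfer RNA genes were touched by 3 clusters, nearest to Gpx5, Prss16 and Osbp.

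Compact clusters had a greater median distance from genes than spread ones. In the 68 clusters with the highest share covered, 20.8 to 72.4%, the median distance to a protein-coding gene was 21.99 kb. Of these, 21 touched such a gene and 20 lay more than 100 kb from one. In the 68 with the lowest share, 5.84 to 11.5%, 34 touched a gene and 2 lay more than 100 kb from one. Their median distance of 0.828 kb is a midpoint between a cluster touching a gene and the nearest cluster outside one. A longer span also reaches nearer to a gene, which was not allowed for. The median span was 5.88 kb in the most compact 68 and 13.3 kb in the least compact, which follows in part from dividing by the span. The median width of their regions was 251 and 179.5 bp. A gene-end region lay in the span or within 10 kb for 5 of the most compact clusters and 22 of the least compact.

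The most compact cluster, at chromosome 2, 22001968 to 22005944, lay 171 kb from the nearest gene, Gpr158, and had regions of 77, 305, 734, 571 and 1192 bp. The next were inside S100a7l2 with 67.0% covered, 152 kb from Nup35 with 62.9%, 88.2 kb from Vmn1r2 with 59.9% and inside Filip1 with 59.4%. That near 9230019H11Rik had 51.4%. The 3 most remote were 1226 kb from Zeb2, 848 kb from Api5 and 613 kb from Cntnap5b. Each had 5 regions and a span of 2.39, 3.04 and 3.47 kb, of which 38.1, 39.4 and 39.96% were covered. At the cluster nearest to Zeb2 the regions measured 313, 73, 161, 216 and 149 bp.

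**Figure D5:**
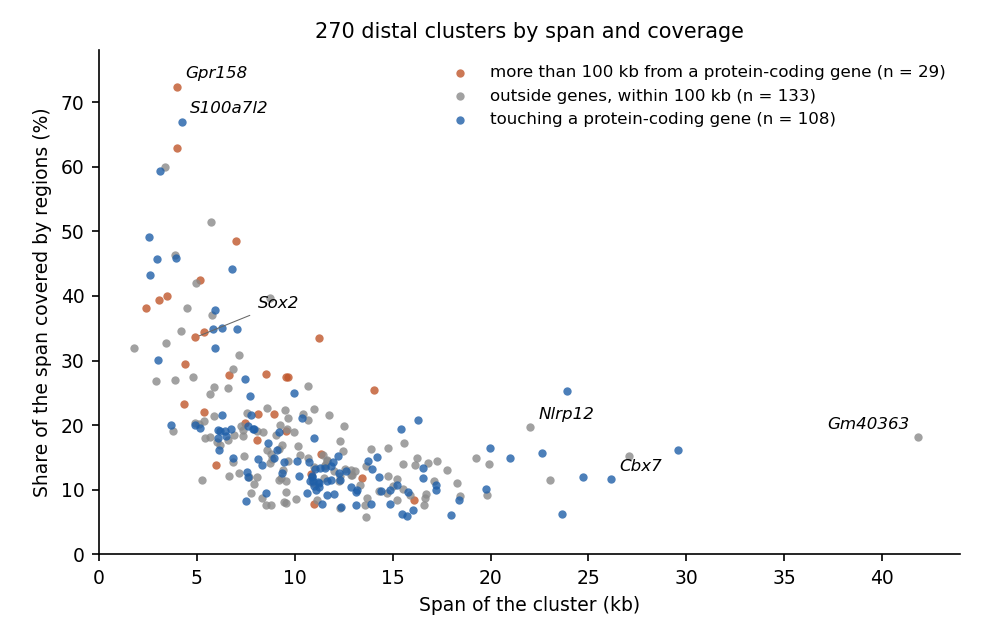
Span of each of the 270 clusters (kb, horizontal axis) against the share of it covered by regions (percent, vertical axis), coloured by distance to the nearest protein-coding gene. Clusters more than 100 kb from a gene (orange, n = 29) include 20 of the 68 clusters with the highest share covered, and the longest, nearest to Gm40363, has 18.1% covered.

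Some clusters lay near one another along a chromosome, and the number expected from random placement was not counted. The smallest distances were partly set by the 5 kb gap limit. Neighbours 6.11 kb apart near Gm15319 and 7.14 kb apart near Mid1 would be joined at a slightly longer gap. The next cluster lay within 1 Mb for 82 of 270, and 12 stretches held 3 or more clusters each less than 1 Mb from the next, 42 clusters in all. On chromosome 8, 6 clusters with 37 regions lay between 20129566 and 20839697, near Gm15319 and Defb33. On chromosome X, 4 clusters with 36 regions lay between 169986246 and 170852481, near Mid1 and Asmt. On chromosome 16, 3 clusters with 21 regions lay between 3112056 and 3352024, and Olfr161, an olfactory receptor gene, was nearest to all of them at 469, 353 and 240 kb. The first and the last of these covered 3.76 and 3.58 kb, among the 10 highest values, as were 3.48 kb near Gm15319 and 3.40 kb near Vmn1r238. On chromosome Y, a cluster of 7 regions lay 462 kb from Zfy1. Vomeronasal receptor genes were nearest to 6 clusters (2.22%), olfactory receptor genes to 5 (1.85%) and genes of the Gm series to 25 (9.26%). The shares of these families among all protein-coding genes were not counted, so no preference for them can be read from this. In all, 19 clusters lay within 1 Mb of the outermost gene or region of their chromosome, and 16 of them were among the 68 most compact. The sources used here do not say whether reads had to map uniquely at such places.

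The 19 autosomes had 10.7 ± 2.30 clusters per 100 Mb (SD over chromosomes), ranging from 6.27 on chromosome 10 to 14.8 on chromosome 18. Chromosome X had 6.56 and chromosome Y 2.20. As a share of distal regions, clusters held 1.43 to 3.67% on the autosomes, 3.83% on X and 8.93% on Y, the last from 15 of 168 regions.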

How the data were processed

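ATAC-seq regions of 8 libraries, in 4 groups of 2 replicates, were analysed as 1 list. The authors deposited a chromosome, start and end in base pairs for each region, with no value per library. Per the submitters' processing notes, MACS2 version 2.1.1, Bowtie2, bedtools, SAMtools, Picard and cutadapt were used with build GRCm38 (mm10). Their parameters, the Tn5 shift, blacklist filtering and the merging of libraries are not stated in the sources used here. The labels name total RNA and a transcriptomic source although titles and protocol describe ATAC-seq, which was followed.

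Gene spans came from RefSeq GRCm38.p6. After leaving out 348 genes (113 protein-coding) whose positions in the table fell back by more than 1 Mb, taken as lying on scaffolds, 49595 genes (21774 protein-coding) remained. Clusters were found with Python 3.11.15, pandas 2.3.3 and numpy 2.4.6, and figures drawn with matplotlib 3.10.9. On 40 simulated sets with 4800 regions the cluster code gave 0 disagreements with a direct count. Wilson intervals at 95% cover counting error only and take the counted regions or genes as independent, which neighbours are not. Coordinates count from 1.

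The members and the gene lists were chosen with earlier results of these data known. Named were the nearest genes of the 12 clusters with most regions, 10 with most covered bases, 6 longest, 6 most covered and 6 most remote, and list members within 50 kb, and some of these are given only by their range. Some genes are not reported here. Planned comparisons between groups were not made, for want of a value per library, nor motif and base composition of the regions, for want of a genome. Other gaps, group sizes, margins, crowding limits and region widths were tried.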

Additional observations from a re-analysis of the deposited data

How the results depend on the processing

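The number of clusters follows the rule closely. The main rule gave 270 clusters, a median width of members 24 bp below that of other distal regions (a difference of -24 bp), 32.4% of members in genes and 2.48% of protein-coding genes with a cluster within 50 kb. Gaps of 2.5 kb gave 73 clusters, 29.9% and 0.413%. Gaps of 10 kb gave 1008 clusters, -12 bp, 44.3% and 10.3%, and gaps up to the stitching distance commonly used for super-enhancers gave 1367, -8 bp, 46.8% and 14.5%. Groups of 4 or more regions gave 771 clusters, 37.8% and 6.85%, and groups of 6 or more gave 105, 26.7% and 1.02%. Regions of at least 100 bp gave 155 clusters, -31 bp and 1.44%, and regions of at least 150 bp gave 66, -33 bp and 0.597%. Margins of 500 bp gave 35.0% in genes and 2.93% of genes, while margins of 2 and 5 kb gave 1.96 and 1.51% of genes. Crowding limits of 15 and 30 regions gave 1.86 and 2.79% of genes, and leaving out no window gave 29.99% in genes and 2.89%. Genes of all types as the limit gave 37.6% and 1.77%. Windows of 25 and 100 kb around genes gave 1.58 and 4.21%. The cause of these shifts was not tested beyond what each change of rule does by construction.

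The median width of members was below that of other distal regions under each setting tried that changed the clusters. Core pluripotency genes with a cluster numbered 10 of 24 with groups of 4 or more, 1 with groups of 6 or more and 0 with gaps of 2.5 kb. An alternative chosen after seeing the data left out clusters within 1 Mb of the first or last region of their chromosome, and 251 remained, with 34.5% in genes. No paired analysis was possible because the file holds no value per library, and leaving out a replicate and a narrower window for motifs were not run for the same reason and for want of a genome. Depth limits are unknown.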
